A study of Mus musculus with 2 samples.

Results

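Monocytes of the mouse omentum were chosen by the measured transcripts of single cells, under a rule that kept 271 of 14414 cells. A cell had to carry 200 to 7500 detected genes, at least 1 transcript each of *Csf1r* and *Lyz2*, and at least 2 of the 7 monocyte genes *Ly6c2*, *Ccr2*, *Fn1*, *Chil3*, *F13a1*, *Ace* and *Treml4*. *C1qa*, *Cd209a* and *Flt3* had to be undetected, fewer than 2 of the peritoneal macrophage genes *Gata6*, *Alox15*, *Prg4* and *Saa3* could be present, and summed neutrophil granule genes had to stay below 50 (*Ltf*, *Camp*, *Ngp*) and 20 (*Elane*, *Mpo*, *Prtn3*) UMIs per 10000. A UMI is a molecular barcode that counts 1 transcript molecule, and a level is the mean over cells of UMIs per 10000 UMIs of the cell.

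The study asked what happens to omental leukocytes after loss of *Aldh1a2*-expressing fibroblastic reticular cells, stromal cells of the milky spots. WT mice and *Postn*-DTR mice both received diphtheria toxin (DT) and omental cells were taken 5 days later, so toxin exposure was shared. Genotype cannot be told apart from the library and the mice pooled in it. *Postn*-DTR mice are heterozygous for a diphtheria toxin receptor placed in the *Postn* gene, so that any cell using that promoter can be killed. Age and sex were not given in the sources used here. Cells of 3 mice were pooled into 1 library per genotype, so no test between genotypes was possible, differences between mice cannot be seen, and intervals below cover counting error only.

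Monocytes are made in the bone marrow, circulate in blood and enter tissues, where they can become macrophages or antigen-presenting cells. Classical mouse monocytes carry Ly6C and the chemokine receptor CCR2, through which they leave the marrow. Non-classical monocytes have little of either, depend on the nuclear receptor NR4A1 and patrol vessel walls. In the omentum, monocytes lie in and around the milky spots, lymphoid clusters that open to the peritoneal cavity.

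The WT library held 167 monocytes among 8680 cells and the *Postn*-DTR library 104 among 5734. The monocyte share was 1.92% (exact Clopper-Pearson 95% interval 1.65 to 2.24) for WT, while *Postn*-DTR had 1.81% (1.48 to 2.19), and their ratio was 0.943 (0.740 to 1.20). A share of cells is set by every other cell type too: the neutrophil-type cells of the same matrices made up 2.49% of WT and 9.96% of *Postn*-DTR cells, and T cells 23.8% and 4.67%. A narrower denominator held monocytes, C1q-type and Gata6-type macrophages, *Cd209a* dendritic-type cells and neutrophil-type cells, and no other myeloid cells. Monocytes made up 22.6% of its 739 WT cells and 11.1% of its 934 *Postn*-DTR cells, a ratio of 0.493 (0.393 to 0.617). Over cells with a *Ptprc* UMI, the pan-leukocyte gene, the ratio was 1.03 (0.800 to 1.31), and with 1 or more monocyte genes in place of 2 it was 1.13 (0.910 to 1.41).

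The median WT monocyte held 9596 UMIs from 2856 genes and the median *Postn*-DTR monocyte 8416.5 UMIs from 2556.5 genes. Mitochondrial transcripts were a median of 1.53% and 1.34% of their UMIs. The libraries shared 65 barcode sequences, of which 0 belonged to a monocyte in both. *Postn* itself was found in 34 WT and 8 *Postn*-DTR cells, and the receptor transgene was not analysed here, so the genotype labels were not checked from the data. Scrublet, which scores likely doublets, marked 2 monocytes in each library.

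Cells near some limits of the rule were not spread evenly. Of cells meeting every other criterion, 16 in WT and 33 in *Postn*-DTR had exactly 1 of the 7 monocyte genes and were left out, and 25 and 17 had exactly 2 and were kept. The limit on *Elane*, *Mpo* and *Prtn3* left out 29 WT and 53 *Postn*-DTR cells, with median sums of 82.2 and 85.4, far above it. Closer to that limit, 9 WT and 10 *Postn*-DTR cells outside it had sums of 20 to 40. Inside it, 5 and 17 monocytes had sums of 10 to 20. The highest sum inside that limit was 17.5 in WT and 19.9 in *Postn*-DTR, and the lowest outside it was 21.5 and 20.3.

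The label was checked against markers that the rule did not use. Of 15 other classical monocyte genes, 12 in WT and 14 in *Postn*-DTR had a higher level in the gated cells than in all other cells of the library. Those other cells are of every remaining type, so this check does not set monocytes apart from macrophages, dendritic cells or neutrophils. *Plac8*, a small cysteine-rich protein gene of monocytes, stood at 22.9 against 3.74 in WT and 17.9 against 2.58 in *Postn*-DTR. *Ifitm3*, an antiviral membrane protein gene, stood at 43.9 against 2.93 and 26.3 against 4.02. Defining genes of T, B and NK cells were lower in monocytes than in other cells for all 6, 6 and 5 genes of those lists, in both libraries.

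Some monocytes nevertheless held transcripts of other cells. At least 2 UMIs of *Cd3d*, *Cd3e* and *Cd3g* were found in 14 WT monocytes (8.38%) and 1 *Postn*-DTR monocyte (0.962%). The summed level of the T cell list reached 26.6 in a WT cell but only 5.17 in a *Postn*-DTR cell, with 150 of 167 and 101 of 104 cells at 0. The plasma cell list had medians of 5.30 and 9.34 over cells, and its largest sums were 1436 for WT and 1014 for *Postn*-DTR. Of its 6 compared genes 3 were at least 2-fold higher in *Postn*-DTR, among them *Ighm* at 5.20 and 21.1, while all other cells of those libraries stood at 42.6 and 184.8.

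Values of the genes used by the rule are a description of the gated cells only. *Lyz2*, the lysozyme gene, stood at 175.4 in WT and 133.7 in *Postn*-DTR, and *Csf1r*, the receptor for macrophage colony-stimulating factor, at 6.82 and 3.64. *Ccr2* stood at 7.79 and 5.76 and *Ly6c2* at 14.8 and 10.6, while *Fn1*, encoding fibronectin, stood at 9.23 and 14.3 and *F13a1*, a coagulation factor subunit, at 5.70 and 8.61. *Ace*, angiotensin-converting enzyme, stood at 1.71 and 0.648, and *Treml4*, a receptor of non-classical cells, at 0.723 and 0.728. *Saa3*, an acute-phase serum amyloid gene, was detected in 4 WT and 27 *Postn*-DTR monocytes and had a log2 ratio of 6.55.

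*Chil3*, also used by the rule, had the largest log2 ratio of the 7 monocyte genes, 3.59. It encodes a chitinase-like secreted lectin that is abundant in classical monocytes, alveolar macrophages and neutrophil precursors. It was detected in 72 of 167 WT monocytes (43.1%, 35.5 to 51.0) and 88 of 104 *Postn*-DTR monocytes (84.6%, 76.2 to 90.9). Its level was 4.51 in WT and 54.6 in *Postn*-DTR, and the cell medians were 0 and 40.2 with maxima of 71.9 and 273, so the libraries overlapped. *Chil3* lies on chromosome 3 (106147554 to 106167564, mm10) beside the similar *Chil4*, and reads shared by such copies cannot be assigned with certainty.

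The subsets were set from 4 rule genes. Cells with *Ly6c2* or *Ccr2* and neither *Ace* nor *Treml4* were called classical, the converse non-classical, and cells with a gene of each pair mixed. Classical cells were 92 of 167 WT monocytes (55.1%, 47.2 to 62.8) and 75 of 104 *Postn*-DTR monocytes (72.1%, 62.5 to 80.5). Mixed cells were 63 (37.7%, 30.4 to 45.5) and 20 (19.2%, 12.2 to 28.1), and non-classical cells 12 (7.19%, 3.77 to 12.2) and 7 (6.73%, 2.75 to 13.4). The remaining 2 *Postn*-DTR cells had neither pair. When any cell with *Ace* or *Treml4* was counted as non-classical, the shares were 44.9% in WT and 26.0% in *Postn*-DTR.

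**Figure D1:**
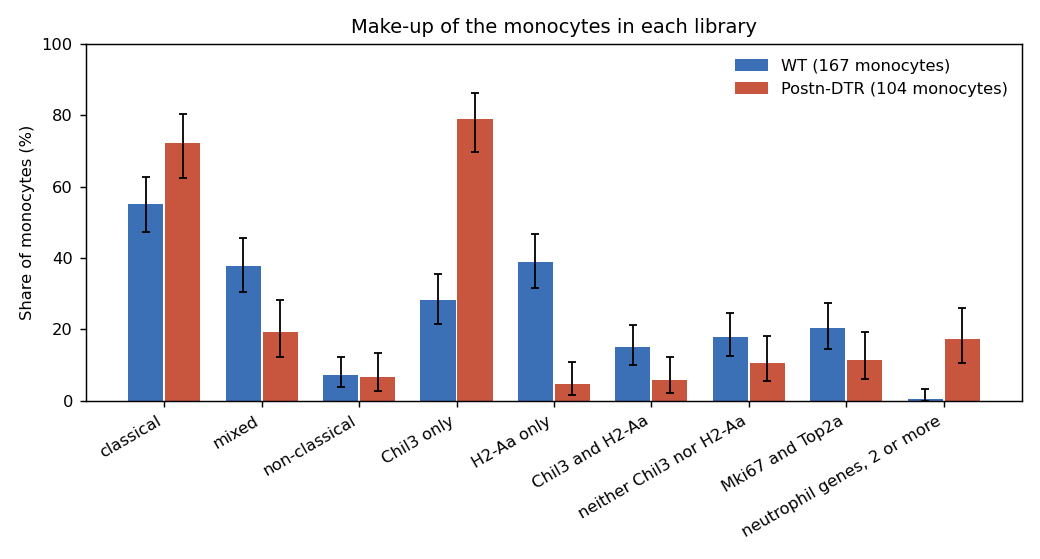
Share of monocytes (%) in each class, for the WT and *Postn*-DTR libraries. Bars give the share and lines the exact 95% counting interval; the *Chil3* only bar stands at 28.1% in WT and 78.8% in *Postn*-DTR, and the *H2-Aa* only bar at 38.9% and 4.81%.

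Genes that the split did not use differed between its classes to unequal extents. Non-classical genes were higher in non-classical than in classical cells for 17 of 17 measured genes in WT (median log2 ratio 3.24) and 15 of 15 in *Postn*-DTR (2.30). Classical genes separated less, with 5 of 14 in WT (median -0.54) and 2 of 14 in *Postn*-DTR (-0.58) higher in the non-classical cells. *Nr4a1*, the transcription factor these cells depend on, stood at 7.12 in classical and 23.5 in non-classical WT cells, and at 3.99 and 19.7 in *Postn*-DTR. *Itgal*, the alpha chain of LFA-1, stood at 1.06 and 16.2 in WT and 0.741 and 3.23 in *Postn*-DTR. *Cd36*, a scavenger receptor, stood at 0.413 and 3.29 in WT and 0.191 and 6.70 in *Postn*-DTR. Mixed cells lay between the other classes for *Nr4a1* and *Itgal* in both libraries and had the highest *H2-Aa* level, 70.8 in WT and 7.79 in *Postn*-DTR. The non-classical levels rest on only 12 and 7 cells.

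Across genes, 4099 reached at least 100 UMIs over both sets of monocytes and detection in at least 10% of cells of a library. Of these, 108 (2.63%) were at least 2-fold higher in *Postn*-DTR monocytes and 251 (6.12%) at least 2-fold lower, and the median log2 ratio of *Postn*-DTR over WT was -0.13. Log2 ratios were taken of levels plus 0.02. Fold size alone was used, since 1 library per genotype gives no error of the difference. Among classical cells alone 3057 genes were compared, of which 87 (2.85%) were higher and 162 (5.3%) lower.

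**Figure D2:**
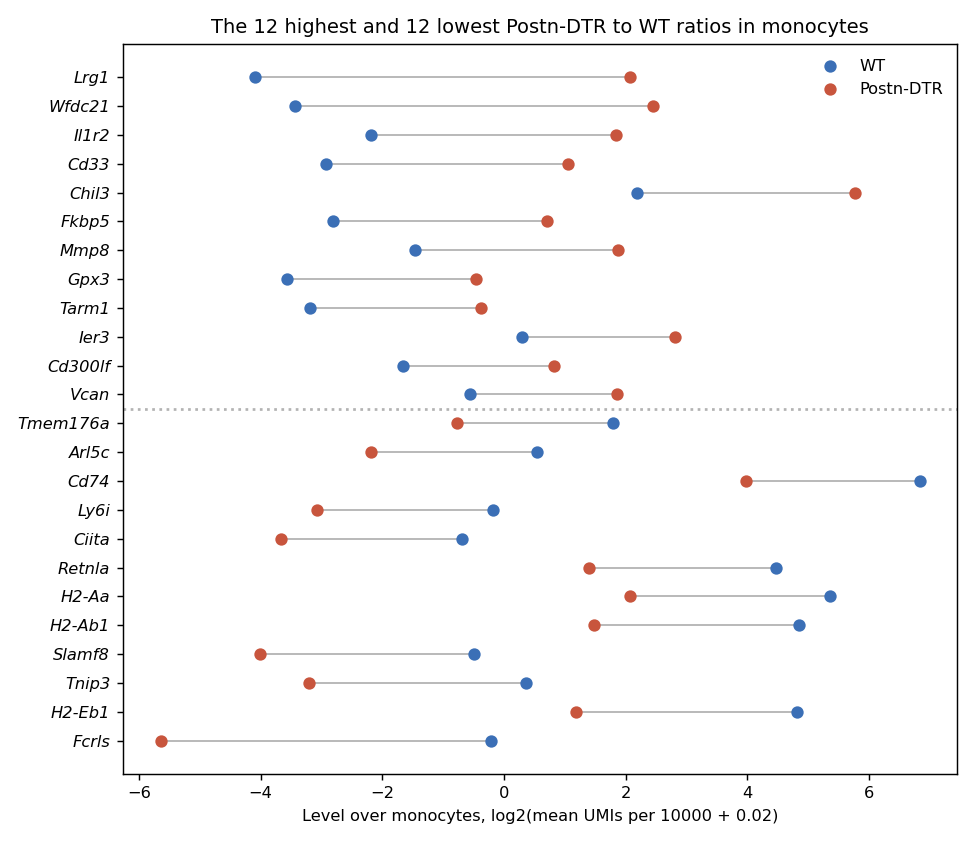
Level over monocytes, as log2(mean UMIs per 10000 + 0.02), in WT and *Postn*-DTR for the 12 genes with the highest and the 12 with the lowest ratio among genes that, in the library where they were higher, reached at least the level of its other cells and had no cell with over 20% of their UMIs; a line joins the libraries of a gene. *Fcrls* in *Postn*-DTR is at 0 UMIs, so its point marks the added 0.02 alone. *Chil3*, among the 12 highest, is a gene of the rule.

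Genes were ranked if, in the library where they were higher, monocytes reached at least the level of all other cells and no cell held over 20% of the UMIs, which leaves out *Saa3*, *Retnlg*, *Lcn2*, *S100a8* and *S100a9* among the higher genes and *Il6* among the lower. The highest ranked ratio belonged to *Lrg1*, a secreted leucine-rich glycoprotein of granules and the acute phase. It was detected in 5 of 167 WT monocytes and 60 of 104 *Postn*-DTR monocytes, with levels of 0.0383 and 4.19 and a log2 ratio of 6.17. *Wfdc21*, a small protease-inhibitor-type protein, followed at 5.89, with 6 and 65 positive cells. *Il1r2*, the decoy receptor for interleukin-1, had a log2 ratio of 4.04 (0.199 and 3.58), and *Cd33*, a sialic-acid-binding inhibitory lectin, 3.99 (0.111 and 2.06). Each of these genes was found in a minority of WT cells and a majority of *Postn*-DTR cells.

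The other high ranked ratios came from genes of several roles. *Fkbp5*, a co-chaperone of the glucocorticoid receptor, had a log2 ratio of 3.52 and was detected in 23 WT and 71 *Postn*-DTR monocytes. *Mmp8*, the neutrophil collagenase, stood at 3.35, *Gpx3*, a secreted glutathione peroxidase, at 3.11 and *Tarm1*, an activating receptor of myeloid cells, at 2.81. *Ier3*, an immediate early gene, was at 2.52, *Cd300lf*, an inhibitory receptor, at 2.48 and *Vcan*, the matrix proteoglycan versican, at 2.43. The 12 include the rule gene *Chil3*, and *Mmp8* is itself among the genes that define the cells carrying neutrophil genes, described next. All 12 stayed at least 2-fold higher among classical cells and without those cells. They were picked as extremes of these same cells, so this is no independent support.

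Neutrophil genes were higher in *Postn*-DTR monocytes. At least 2 of *Retnlg*, *Cxcr2*, *Mmp9*, *Mmp8* and *Ly6g* were present in 1 WT monocyte (0.599%, 0.0152 to 3.29) and 18 *Postn*-DTR monocytes (17.3%, 10.6 to 26.0). All 10 compared genes of the granule and neutrophil list were at least 2-fold higher in *Postn*-DTR, with a median log2 ratio of 4.08. Without those cells, 69 of 3964 genes (1.74%) were at least 2-fold higher and 210 (5.3%) lower, and 6 of 8 compared listed genes remained past 2-fold with a median of 3.13. How far such cells set the whole difference was not tested.

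*S100a8* and *S100a9* encode the subunits of calprotectin. *S100a8* stood at 5.55 in WT, where 70.1% of its UMIs came from 1 cell, and at 87.8 in *Postn*-DTR, where 67 of 104 cells were positive. Its log2 ratio of 3.98 was 3.15 without the cells carrying neutrophil genes. *Retnlg*, a resistin-like gene of mature neutrophils and 1 of the 5 genes that define those cells, had a ratio of 5.13. *Lcn2*, the siderophore-binding lipocalin, had a ratio of 5.27 without those cells, against 4.59 with them. Its WT level over all monocytes, 0.596, included 1 cell at 68.1, so single WT cells weigh heavily on both ratios.

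T cells of the *Postn*-DTR library also held UMIs of these genes more often, and the source of those UMIs was not tested. *S100a8* UMIs were present in 3.72% of WT and 13.4% of *Postn*-DTR T cells, and in 8.38% and 64.4% of monocytes. *Lcn2* was in 1.88% and 8.58% of T cells, and in 6.59% and 79.8% of monocytes. T cells had median depths of 5279.5 and 5653 UMIs, below those of monocytes. At 2000 UMIs in every cell, *Lcn2* was present in 2.99% of WT and 59.8% of *Postn*-DTR monocytes, against 0.978% and 6.11% of T cells.

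MHC class II genes were lower in *Postn*-DTR monocytes. These genes encode the molecules that present peptides to CD4 T cells, with their invariant chain *Cd74*, their peptide exchange factors *H2-DMa* and *H2-DMb1* and their master regulator *Ciita*. Of 12 listed genes 8 were compared, and 7 were at least 2-fold lower and 0 higher, with a median log2 ratio of -2.91. The eighth, the protease gene *Ctss*, stood at 14.9 in WT and 10.3 in *Postn*-DTR. Among classical cells 6 of 7 compared genes were at least 2-fold lower (median -2.48), and without cells carrying neutrophil genes 7 of 8 (median -2.68). Dendritic cell genes were lower in part, with most of the list too sparse to compare. Of 13 such genes 3 were compared and 2 were at least 2-fold lower (median -2.04), and the list summed to 0 to 21.0 per WT monocyte (median 4.32, 3 genes at 0) and 0 to 36.8 per *Postn*-DTR monocyte (median 2.62, 5 at 0). The requirement that *Cd209a* and *Flt3* be undetected had left out 181 WT and 44 *Postn*-DTR cells. The part of dendritic-type cells in the MHC class II difference was not tested.

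*H2-Aa*, an alpha chain, was detected in 90 of 167 WT monocytes (53.9%, 46.0 to 61.6) and 11 of 104 *Postn*-DTR monocytes (10.6%, 5.40 to 18.1). Its levels of 40.9 and 4.19 gave a log2 ratio of -3.28. *H2-Ab1* stood at 28.9 and 2.79 and *H2-Eb1* at 28.2 and 2.26. *Cd74* stood at 114.2 and 15.9, with cell medians of 26.6 and 0. *Ciita* was detected in 47 WT and 4 *Postn*-DTR cells. In both libraries single monocytes reached high *H2-Aa* values, up to 247 in WT and 161 in *Postn*-DTR, so the libraries overlapped.

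The proportion of positive cells differed along with the level per positive cell. *H2-Aa* averaged 76.0 in positive WT cells and 39.6 in positive *Postn*-DTR cells. Summed *H2-Aa*, *H2-Ab1* and *H2-Eb1* reached 20 or more in 77 WT monocytes (46.1%, 38.4 to 54.0) and 7 *Postn*-DTR monocytes (6.73%, 2.75 to 13.4). *H2-Aa* UMIs were present in 13.3% of WT and 8.21% of *Postn*-DTR T cells, so the share in *Postn*-DTR monocytes was close to that of T cells and the share in WT monocytes was not. Only detection is compared here, at unequal depth, and the 7 *Postn*-DTR monocytes at 20 or more held far more than single UMIs.

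Detection of *Chil3*, a gene of the rule, and *H2-Aa* sorted the monocytes as follows. *Chil3* without *H2-Aa* marked 47 WT monocytes (28.1%) and 82 *Postn*-DTR monocytes (78.8%), and *H2-Aa* without *Chil3* 65 (38.9%) and 5 (4.81%). Both were found in 25 (15.0%) and 6 (5.77%), and neither in 30 and 11. Of the 11 *H2-Aa*-positive *Postn*-DTR monocytes, 6 thus also held *Chil3*.

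**Figure D3:**
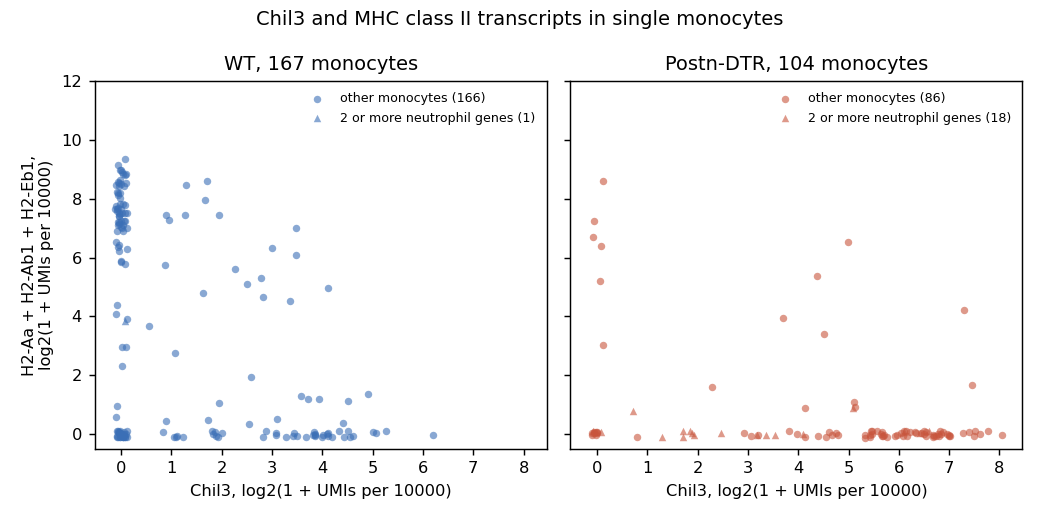
Each point is a monocyte of the WT (167) or *Postn*-DTR (104) library, with *Chil3* on the x axis and the sum of *H2-Aa*, *H2-Ab1* and *H2-Eb1* on the y axis, both as log2(1 + UMIs per 10000), slightly jittered. Triangles are cells with 2 or more neutrophil genes; 77 WT and 7 *Postn*-DTR cells hold a summed MHC class II level of 20 or more.

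The Y box, bound by NF-Y, is part of the promoter module through which CIITA drives these genes. Its letters CTGATTGG, searched on both strands, occurred in 4 of 10 promoters listed for the MHC class II genes and in 4.1% of 32851 promoters of RefSeq (GRCm38.p6), each taken from 250 bases before to 50 after the start. The 150 bases before the transcript start of 2 members are shown because they hold these letters, in capitals, 51 bases before the start in *H2-Aa* (chr17:34287824-34287973, minus strand) and 62 in *H2-Eb1* (chr17:34305717-34305866, plus strand).
H2-Aa: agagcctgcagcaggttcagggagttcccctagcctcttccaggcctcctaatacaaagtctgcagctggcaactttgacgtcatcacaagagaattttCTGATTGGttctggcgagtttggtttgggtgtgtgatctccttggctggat
H2-Eb1: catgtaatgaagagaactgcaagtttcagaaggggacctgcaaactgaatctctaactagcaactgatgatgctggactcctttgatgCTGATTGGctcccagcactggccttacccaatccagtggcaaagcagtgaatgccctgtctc
A match is a description of these letters only, and 12 motifs were searched.

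Interferon-stimulated genes were lower as well. Of 21 type I genes in the files 14 were compared, and 11 were at least 2-fold lower and 0 higher in *Postn*-DTR, with a median log2 ratio of -1.28. *Ifi27l2a*, a small mitochondrial protein gene, stood at 16.0 in WT and 4.20 in *Postn*-DTR. *Isg15*, a ubiquitin-like modifier, stood at 1.42 and 0.403 and was detected in 73 and 21 monocytes. *Bst2*, the tetherin gene, stood at 2.82 and 0.907. *Irf7*, which amplifies interferon production, stood at 1.45 and 0.692.

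At 2000 UMIs per cell, *Isg15* was found in 16.8% of WT and 8.82% of *Postn*-DTR monocytes, against 8.60% and 9.16% of T cells. Among classical cells 8 of 12 compared type I genes were at least 2-fold lower (median -1.23). Of 6 compared interferon-gamma-induced genes 3 were at least 2-fold lower (*Gbp3*, *Tap1* and *Ifi47*), with a median of -0.90. The receptor chain *Ifnar1* was at 0.838 in WT and 0.335 in *Postn*-DTR, while *Ifngr1* stood at 6.16 and 4.27.

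The core of the interferon-stimulated response element, searched on both strands as GAAA, any 2 bases and GAAA again, occurred in 7 of 15 promoters of the type I list and in 3.44% of all promoters. It is shown in capitals for 2 lower members, with 3 overlapping matches in *Isg15* (chr4:156200819-156200968, minus strand) and 2 in *Bst2* (chr8:71537473-71537622, minus strand).
Isg15: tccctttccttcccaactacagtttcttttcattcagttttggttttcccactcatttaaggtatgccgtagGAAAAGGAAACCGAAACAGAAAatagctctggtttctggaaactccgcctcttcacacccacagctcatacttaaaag
Bst2: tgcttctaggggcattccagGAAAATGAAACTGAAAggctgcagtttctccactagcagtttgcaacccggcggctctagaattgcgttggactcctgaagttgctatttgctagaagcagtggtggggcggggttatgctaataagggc
The letters TTGCNNAA of C/EBP-type sites occurred in 7 of 15 promoters of the granule and neutrophil list and in 10.8% of all promoters. The glucocorticoid receptor half-site TGTTCT occurred in 5 of 23 promoters of the glucocorticoid-induced list (21.7%) and in 19.0% of all promoters.

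**Figure D4:**
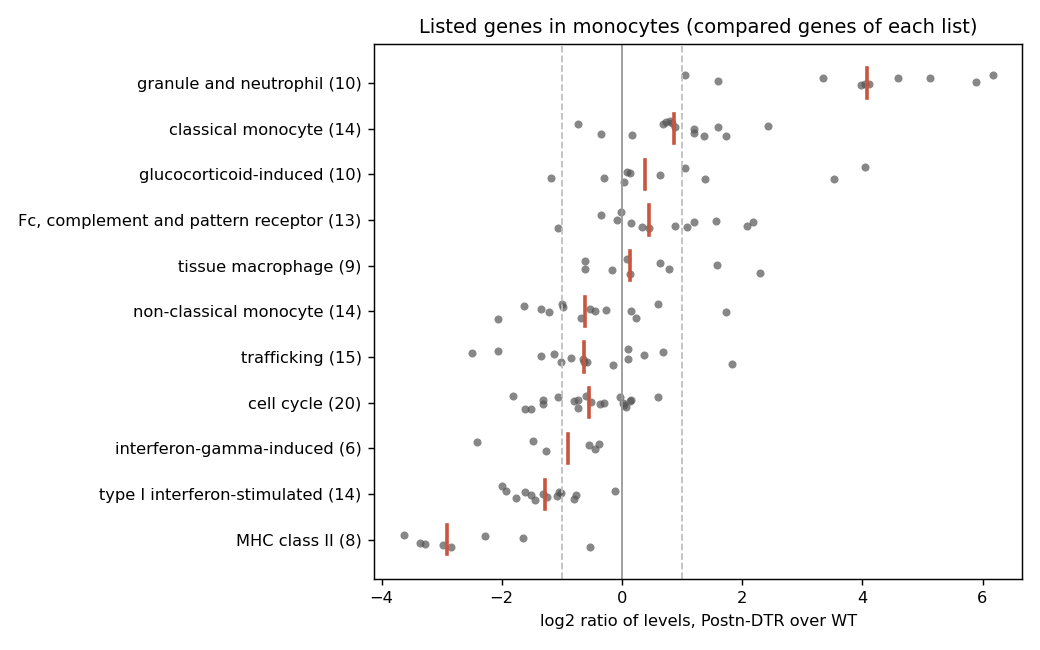
Each point is a compared gene, placed by its log2 ratio of levels in *Postn*-DTR over WT monocytes, with the number of compared genes beside each list and a bar at the list median. Medians run from 4.08 in the granule and neutrophil list to -2.91 in the MHC class II list, beside -0.13 over all 4099 genes; dashed lines mark 2-fold.

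Genes of the classical program were higher in part. Of 14 compared genes 6 were at least 2-fold higher and 0 lower, with a median log2 ratio of 0.86. *Hp*, encoding haptoglobin, stood at 5.47 in WT and 18.2 in *Postn*-DTR, and was detected in 107 and 100 cells. *Thbs1*, encoding the adhesive protein thrombospondin, stood at 7.51 and 19.4. *Plac8* and *Ifitm3* had log2 ratios of -0.35 and -0.74. Within classical cells alone 4 of 14 genes were past 2-fold with a median of 0.87.

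Non-classical genes were lower in part. Of 14 compared genes 5 were at least 2-fold lower and 1 higher, with a median of -0.61. *Cx3cr1*, the fractalkine receptor, stood at 1.72 in WT and 0.395 in *Postn*-DTR and was detected in 110 and 24 cells. Its log2 ratio of -2.07 was -2.73 within classical cells. The gene that was higher was *Pglyrp1*, a granule protein, whose log2 ratio of 1.73 became -0.38 without cells carrying neutrophil genes.

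The lowest ranked ratios outside the MHC class II list included genes of few and of many WT cells. *Fcrls*, an Fc receptor-like scavenger protein gene, had 152 UMIs in 25 WT monocytes and 0 in *Postn*-DTR, at least 27.7-fold lower against a floor of 3 UMIs over the group. *Tnip3*, a partner of the NF-kB brake A20, had 187 WT and 5 *Postn*-DTR UMIs, and *Slamf8*, a signalling receptor of myeloid cells, 129 and 4. *Retnla*, a resistin-like gene of alternatively activated macrophages, had 3954 UMIs in 20 WT cells and 170 in 2 *Postn*-DTR cells. *Ly6i* shares sequence with *Ly6c2*, so its log2 ratio of -2.90 is uncertain. *Arl5c*, a small GTPase gene, and *Tmem176a*, a membrane channel-like protein gene, were at -2.73 and -2.56, and were detected in 99 and 111 WT and in 17 and 26 *Postn*-DTR monocytes.

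Glucocorticoid-induced genes were higher in part. Of 10 compared genes 4 were at least 2-fold higher and 1 lower, with a median of 0.39. Without cells carrying neutrophil genes 3 of 9 were at least 2-fold higher (median 0.12), and in classical cells 3 of 8 (median 0.29). *Fkbp5* stood at 0.123 in WT and 1.62 in *Postn*-DTR, *Il1r2* was given above, *Anxa1*, encoding annexin A1, stood at 2.22 and 5.83, and *Klf9*, a transcription factor gene, at 0.297 and 0.636. *Sgk1*, a kinase gene, was lower, at 2.25 and 0.983, but its log2 ratio of -1.18 was -0.92 without cells carrying neutrophil genes and -0.86 in classical cells, short of 2-fold. In contrast *Tsc22d3* (GILZ) stood at 1.01 and 1.59 and *Per1* at 1.22 and 0.993. *Fkbp5* UMIs were also in 15.9% of WT and 39.2% of *Postn*-DTR T cells, which express the gene themselves.

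Inflammatory mediators were lower in part. *Il6* was detected in 24 WT and 4 *Postn*-DTR monocytes, and *Icam1*, the ligand of LFA-1, stood at 1.44 and 0.270. *Tnfaip3*, encoding A20, stood at 1.49 and 0.345. *Il1b* stood at 15.8 and 17.3, and *Cd14*, the lipopolysaccharide co-receptor, was higher at 5.01 and 10.5. Its log2 ratio of 1.06 was 0.92 without cells carrying neutrophil genes and 0.87 in classical cells, short of 2-fold. Of the 12 compared genes 4 were at least 2-fold lower and 1 higher (median -0.44).

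Surface receptors and homing genes also split. Of 13 compared Fc, complement and pattern receptor genes 5 were at least 2-fold higher and 1 lower, with a median of 0.44. *Trem1*, an amplifier of inflammatory signals, stood at 0.595 in WT and 2.59 in *Postn*-DTR, *Clec4d* at 0.278 and 1.34, and *C5ar1*, the C5a receptor, at 0.688 and 2.07. The high-affinity receptor *Fcgr1* was lower, at 1.03 and 0.482. However, 0 genes of this list were at least 2-fold lower without cells carrying neutrophil genes or in classical cells. Of 15 trafficking genes 5 were at least 2-fold lower, including *Itgax* (CD11c) at 0.657 and 0.101, and 1 was higher, the chemokine receptor *Ccr1* at 0.520 and 1.90.

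Most compared chemokine ligands, cytokine receptors and lineage factors stayed within 2-fold. Over all compared genes 2.63% were at least 2-fold higher and 6.12% lower. Of 6 compared ligands 1 was at least 2-fold higher (*Ccl4*, 0.926 and 1.89), with a list median of 0.62, and *Ccl6* stood at 16.0 and 27.1. The *Ccl4* levels rest on few cells, with a 75th percentile of 0 in both libraries and a maximum of 65.2 in a *Postn*-DTR cell. Among classical cells 0 of 6 ligands passed 2-fold. Of 17 cytokine receptors 1 was higher and 3 lower, and *Csf2ra*, a GM-CSF receptor chain, stood at 3.64 and 2.74. *Csf3r*, the G-CSF receptor, was higher at 0.798 and 1.67, with a log2 ratio of 1.05 that became -0.58 without cells carrying neutrophil genes. Of 15 lineage transcription factors only *Bhlhe40* passed 2-fold, at 1.46 and 0.270, while *Spi1* (PU.1) stood at 5.64 and 5.40.

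Cycling genes were lower in part. Of 20 compared genes 6 were at least 2-fold lower and 0 higher, with a median of -0.56. *Mki67* stood at 2.05 in WT and 0.701 in *Postn*-DTR and *Top2a*, encoding topoisomerase II alpha, at 1.64 and 0.524. *Mki67* and *Top2a* were found together in 34 WT monocytes (20.4%, 14.5 to 27.3) and 12 *Postn*-DTR monocytes (11.5%, 6.11 to 19.3), intervals that overlap.

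The remaining lists can be read beside the 2.63% of all compared genes that were higher and the 6.12% that were lower. Of 12 glycolysis and hypoxia genes, 5 retinoic acid genes and 84 ribosomal protein genes 0 passed 2-fold, with medians of 0.14, -0.23 and 0.05. Among tissue macrophage genes 2 of 9 were at least 2-fold higher, *Ctsl* (cathepsin L) at 0.563 and 2.83 and *Trem2*, a lipid-sensing receptor, at 0.341 and 1.06, while *Apoe* stood at 14.0 and 21.9. Of 14 immediate early genes 1 was higher and 2 lower, and of 12 mitochondrially encoded transcripts 3 were lower. Of 2 compared Gata6-type peritoneal macrophage genes 0 passed 2-fold, of 6 heat shock genes 1 was lower, and of 3 dendritic cell genes 2 were lower.

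Some of these differences were also seen in neighbouring myeloid cells, and others were smaller or nearly absent there. *Fkbp5* had log2 ratios of 4.33 in C1q-type macrophages and 2.16 in neutrophil-type cells, beside 3.52 in monocytes. *H2-Aa* had ratios of -1.68 in C1q-type macrophages and -0.45 in *Cd209a* dendritic-type cells, beside -3.28 in monocytes. *Isg15* stood at -0.80 in C1q-type macrophages and -0.01 in neutrophil-type cells, beside -1.77 in monocytes. *Lrg1* stood at 2.96 and 0.13, beside 6.17. These classes held 152 and 110 C1q-type macrophages, 216 and 571 neutrophil-type cells and 170 and 18 dendritic-type cells, and with 1 library per genotype the differences between classes were not tested.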

How the data were processed

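Single-cell suspensions of omentum were sequenced with 10x Genomics droplets. The labels name the 5′ kit, the study's methods a 3′ kit, and reads were aligned to mm10. The submitters' processing notes name Cell Ranger 6.0.0. The authors deposited natural log values, ln(1 + UMIs per 10000) with 3 decimals. UMIs were recovered per cell from the smallest step, and 99.96% of WT and 99.90% of *Postn*-DTR values were whole within 0.1. The study's methods removed cells with over 25% mitochondrial transcripts, which the rule for monocytes does not. No monocyte exceeded this. Of 1078 blank gene symbols 1060 were filled from a reference table.

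Levels, folds and exact binomial intervals were computed with Python 3.11.15, numpy 2.4.6, scipy 1.17.1, pandas 2.3.3 and scanpy 1.11.5 (Scrublet). No p-value was computed. Genes needed 100 UMIs over both libraries and detection in 10% of cells of a library. Thinning drew 2000 UMIs per cell and left out 0 WT and 2 *Postn*-DTR monocytes. The procedure was tested on simulated monocytes (4138 genes compared), where 88.4% of genes made 4-fold lower and 98.0% of those made 4-fold higher were estimated within 0.5 log2 units. Every simulated cell was drawn from the pooled WT monocyte profile, without the differences between cells seen in the real monocytes. These rates therefore cover counting error alone and do not apply to genes carried by few cells. The genes named were the 12 highest and 12 lowest ratios (no receptor or mitochondrial genes, level at least that of the library's other cells, no cell with over 20% of UMIs in the higher library), the rule genes, listed genes past 2-fold and the listed genes with most UMIs. *Plac8*, *Ifitm3* and the class comparisons were chosen after their values were seen. The members and the 21 gene lists were chosen with earlier results of these data known. Alternatives changed the gate, the denominator, doublets, scaling, pseudocount, filters and depth.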

Additional observations from a re-analysis of the deposited data

Results flagged for a closer look

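Genes that were at least 2-fold apart in opposite directions in monocytes and in a neighbouring class were noted, and the differences were not tested, since each genotype is 1 library. Only listed and ranked genes were screened. Gata6-type macrophages and *Cd209a* dendritic-type cells had too few cells in a library and were left out. The median C1q-type macrophage held 7426 UMIs in WT and 3421 in *Postn*-DTR. In C1q-type macrophages the log2 ratio of *Postn*-DTR over WT was -3.77 for *S100a8*, -2.50 for *S100a9*, -1.83 for *Lcn2*, -1.86 for *Elane*, -1.57 for *Pglyrp1* and -1.09 for *Cd79a*, beside 3.98, 4.11, 4.59, 1.25, 1.73 and 1.47 in monocytes. The monocyte value of *Elane* is limited by the rule, which capped its sum with *Mpo* and *Prtn3*, so its direction there is not read. *Irf7*, a regulator of the interferon response, stood at 1.01 in C1q-type macrophages and -1.04 in monocytes. In neutrophil-type cells the ratio was 1.98 for *Ccrl2*, 1.43 for *Il10ra*, 1.02 for *Nfkbiz*, 1.46 for *Oasl2* and 1.32 for *Tnfaip3*, all lower in *Postn*-DTR monocytes (-1.13, -1.03, -1.19, -1.01 and -2.04). *Cd177*, a neutrophil surface glycoprotein gene, stood at -1.11 in neutrophil-type cells and 1.60 in monocytes.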

How the results depend on the processing

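The ratio of monocyte shares, 0.943, was 0.647 when every cell was thinned to 2000 UMIs and the gate applied again. It was 0.493 over monocytes and the neighbouring myeloid classes, and 1.21 without the limit on *Elane*, *Mpo* and *Prtn3* (chosen after seeing the data). The cause of these shifts was not tested. The non-classical share was 2.82% in WT with 3 or more monocyte genes and 15.2% in *Postn*-DTR after thinning, and 44.9% and 26.0% by *Ace* or *Treml4* alone. The 108 higher of 4099 compared genes became 66 of 3819 with 3 or more monocyte genes, 69 of 3964 without cells carrying neutrophil genes (chosen after seeing the data), 38 of 793 after thinning, 263 of 7682 with at least 30 UMIs and no detection share and 46 of 1488 with at least 300 UMIs. The 251 lower genes became 35 after thinning, 111 with a pseudocount of 0.2, 162 in classical cells, 698 with at least 30 UMIs and no detection share and 70 with at least 300. Setting the median to 0 gave 138 higher and 177 lower. All 24 ranked genes, among them the rule gene *Chil3*, stayed past 2-fold in each of 13 alternatives, which did not include the changed UMI filters. These genes were picked as extremes of the same cells, so their staying past 2-fold is no independent support. They were scored whether or not they passed the UMI filter in an alternative. *Csf3r* turned to -0.25 with 3 or more monocyte genes and to -0.58 without cells carrying neutrophil genes, *Pglyrp1* to -0.38 in the latter, and *Ccnb1* to 0.43 without the limit on *Elane*, *Mpo* and *Prtn3*. No paired analysis was possible because each genotype is 1 library of pooled mice. Depth limits genes near 1 UMI per cell, and the 12 and 7 non-classical cells are too few to compare their genes between genotypes.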
